A study of Mus musculus with 10 samples.

Results

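Homologous recombination rebuilds a broken chromosome from an intact copy, usually the sister chromatid, and therefore works mainly in cells that have replicated their DNA. Broken ends are sensed and cut back to single strands, BRCA1 and BRCA2 with their partners prepare the single strands for strand exchange, a set of paralogue proteins and the RAD54 translocases help the search for the intact copy, and nucleases resolve the joined molecules. The Fanconi anaemia pathway removes crosslinks between the DNA strands: its core complex attaches ubiquitin to the FANCD2 and FANCI pair, which hands the lesion to the same recombination proteins. The kinases ATM and ATR with CHEK2 and CHEK1 stop the cell cycle while repair goes on. Many of these genes are known to be transcribed most in S and G2 phase.

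The 37 genes described here were chosen by name from these pathways, with earlier results of these data known. All 37 were found among the 17658 genes of the SB431542 experiment and the 16719 genes of the T-5224 experiment. They were read in RNA-seq of ASZ001, a mouse basal cell carcinoma (BCC) line, with expression given as RPKM (reads scaled to the length of the transcript and to the mapped reads of the library). All cells were kept for 24 hours in 154CF medium low in serum (0.2% chelated FBS) with CaCl2 at 0.05 mM, and no group differed in genotype. The first experiment compared 3 libraries of cells given DMSO with 3 given 10 µM SB431542, an inhibitor of the TGFß receptor ALK5. The second compared 2 libraries of cells given DMSO with 2 given 20 µM T-5224, an inhibitor of the transcription factor AP-1. ASZ001 is 1 cell line, so its libraries are cultures and not animals or tumors. The experiments share no libraries and were normalized in separate tables.

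The libraries held between 31.75 and 51.15 M reads, worked out from RPKM of short RNAs. The basal keratins Krt5 and Krt14 were between 3896 and 6087 RPKM in the 5 DMSO libraries. With T-5224 they fell to between 579 and 826 RPKM, with 5 of the 6 keratinocyte markers lower and Epcam higher (0.81 on the log2 scale). With SB431542, Krt14 fell from a mean of 4076 to 2320 RPKM (-0.81) and Krt5 by 0.30, while Epcam rose by 0.23. Some markers of other cell types were at or near 0. Ptprc of leukocytes reached at most 0.012 RPKM, Col1a1 of fibroblasts at most 0.102 RPKM, and Mlana of melanocytes and Kdr of endothelium were not listed. Pdgfra of fibroblasts, too low to be tested, was at 0.45 and 0.58 RPKM in DMSO of the T-5224 experiment. With T-5224 it was at 0.116 and 0.133 RPKM. The 3 markers of other types that were tested, Cd68 (7.01 to 33.2 RPKM), Pecam1 (2.60 to 11.8 RPKM) and Dcn (1.75 to 4.002 RPKM), moved with treatment. Pecam1 fell with both inhibitors (-0.97 with SB431542, -1.27 with T-5224), Dcn rose with both (0.68 and 0.35), and Cd68 rose with T-5224 (0.89) and was not past the threshold with SB431542 (-0.04). The part of these markers in the results was not tested. DMSO replicate 1 of the SB431542 experiment stood apart from the other DMSO libraries: over the genes tested, its deviation from their mean had an SD of 0.272 (log2), against 0.161 and 0.190, and 25 of the 37 repair genes were lower in it than the mean of the other 2.

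In untreated cells the repair genes were expressed at low to moderate levels. In the 3 DMSO libraries of the first experiment they lay between 1.002 RPKM (Xrcc3, which acts in strand exchange) and 22.9 RPKM (Rad50, a subunit of the end-sensing MRN complex), with a median of 6.92 RPKM, against 12.7 RPKM over all genes tested. Below Rad50 came Chek2 (18.2 ± 0.488, SD, n = 3), Topbp1 (17.8 ± 0.701), Rbbp8 (17.5 ± 1.35), Nbn (17.0 ± 1.28) and Clspn (16.2 ± 1.85), each overlapping the next in its DMSO libraries, so that the order among them was not resolved. In 7 of the 36 neighbouring pairs of the order the DMSO libraries did not overlap. Rad51b, Fancm and Xrcc3 were the lowest, each under 2 RPKM.

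In DMSO-treated cells of the T-5224 experiment, levels were lower for most of these genes. The median was 1.75 RPKM, with Rbbp8 highest at 14.1 RPKM and Xrcc3 lowest at 0.302 RPKM, although the median over all genes tested was 12.1 RPKM there. Of the 37 genes, 33 had a lower DMSO mean than in the SB431542 experiment, and for 32 of them every DMSO library was lower. Over all genes tested in both, 49.1% had a lower DMSO mean. The share of all genes with every DMSO library lower was not worked out. The ratio of the DMSO means had a median of 0.301 over the repair genes and of 1.01 over all genes tested in both. Exo1, the nuclease of long-range resection, was at 0.102 of its level in the other experiment, Clspn, the adaptor through which ATR activates CHEK1, at 0.105, and Chek1 at 0.110. Rad51d (1.29) and Fancg (1.30) were the 2 genes whose T-5224 experiment DMSO libraries were all higher. Replication genes, with a median ratio of 0.236, and mitosis genes, with 0.187, were lower in the same libraries. Since the tables were normalized separately, these ratios were not tested, and the cause of the gap was not tested.

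**Figure D1:**
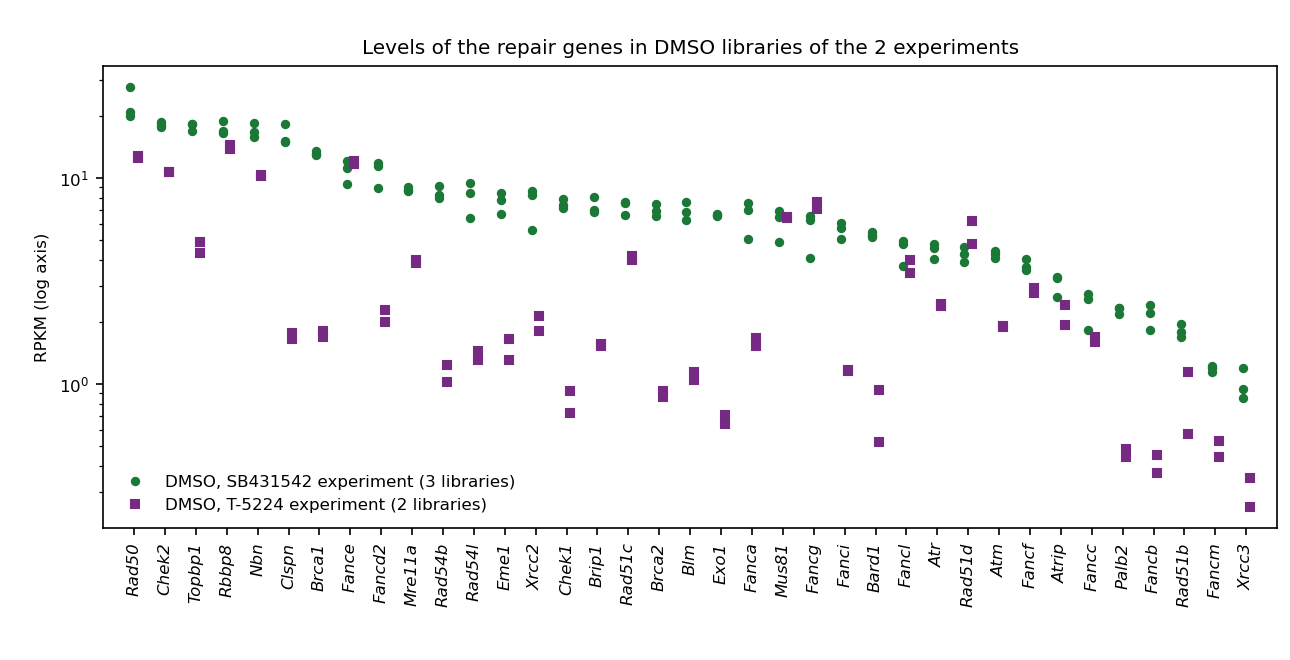
RPKM (vertical axis, log scale) of the 37 repair genes in DMSO libraries, 3 of the SB431542 experiment (circles) and 2 of the T-5224 experiment (squares), ordered by the mean of the former. The squares lie below the circles for 32 of the 37 genes, and above them for Rad51d and Fancg.

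To ask how the repair genes respond when TGFß receptor signaling is blocked, SB431542 was compared with DMSO. All 37 genes were tested, 12 rose past an adjusted p of 0.05 (32.4%), and 0 were lower. Over all 10842 genes tested, 10.2% were higher and 10.0% lower. The changes were small: the median log2 fold change of the repair genes was 0.19, against 0.01 over all genes, and the range ran from -0.10 (Rbbp8) to 0.51 (Rad54l). None of the repair genes passed 2-fold in either direction, as did 0.231% of all genes upward and 0.581% downward. In 20 of the 37, every SB431542 library was above every DMSO library, and in 0 every library was below, where 23.9% and 21.3% of all genes were so placed.

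These calls depended on single libraries. Without DMSO replicate 1, the library that stood apart, 21 repair genes were higher and 2 (Mus81 and Fancg) were lower. Without DMSO replicate 2 the number higher was 6, without DMSO replicate 3 it was 12, and without SB431542 replicate 1, 2 or 3 it was 2, 1 and 3. The share of all genes tested that was higher moved in the same fits, to 19.9% without DMSO replicate 1, 5.93% and 7.80% without DMSO replicates 2 and 3, and 3.28%, 2.78% and 2.85% without the SB431542 replicates in turn. Topbp1 was the only gene past the threshold in each of these fits. At an unadjusted p, 20 were higher (19.1% of all genes), and with no filter on low values 8 were (4.90% of all genes), with the calls of Rad51d, Rad54l, Fancb and Atr lost.

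To ask how they respond when AP-1 is inhibited, T-5224 was compared with its own DMSO libraries. Here 33 of the 37 genes reached the lowest mean RPKM tested (1 over the 4 libraries), 26 of them were higher (78.8%) and 3 were lower (9.09%). Over all 10809 genes tested, 40.3% were higher and 39.4% lower. Past 2-fold, 9 repair genes were up (27.3%) and 0 were down, against 10.4% and 10.6% of all genes. The 9 became 14 at a pseudocount of 0.1 (11.5% of all genes) and 4 at a pseudocount of 1 (9.10%). The median log2 fold change was 0.74 for the repair genes and 0.00 for all genes. Groups did not overlap in 32 of the 33 genes, with T-5224 above DMSO in 28 and below in 4, where 45.1% of all genes were wholly above and 44.5% wholly below.

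The genes left out by the filter were Palb2, Xrcc3, Fancb and Fancm. A further 5 genes, Exo1, Bard1, Brca2, Rad51b and Chek1, had a DMSO mean under 1 RPKM and were tested only because T-5224 raised the mean over the 4 libraries, so the counts of genes tested favour a rise. With no filter, 26 of the 37 were higher and 3 lower, with 10 up over 2-fold, against 28%, 29.8% and 7.24% of all genes. Of the 28 genes tested with a DMSO mean of at least 1 RPKM, 22 were higher (78.6%) and 7 up over 2-fold (25%), where 39.1% and 9.13% of all genes with such a mean were. Among the 11 genes with a mean of at least 5 RPKM, 7 were higher, 2 were lower and 1 (Rad51c) was up over 2-fold, where 43.4%, 38.4% and 10.2% of all genes were. Leaving out 1 library sets 2 libraries against a single one, so only fold changes are given for those fits. In them the log2 fold change of each of the 29 called genes kept its sign, with the widest range in Rad51b (0.32 to 0.93). The calls nearest the threshold in the main fit were Fancl, Rad51b, Brip1 and Clspn (limma, adjusted p from 0.00605 in Clspn to 0.0485 in Fancl).

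**Figure D2:**
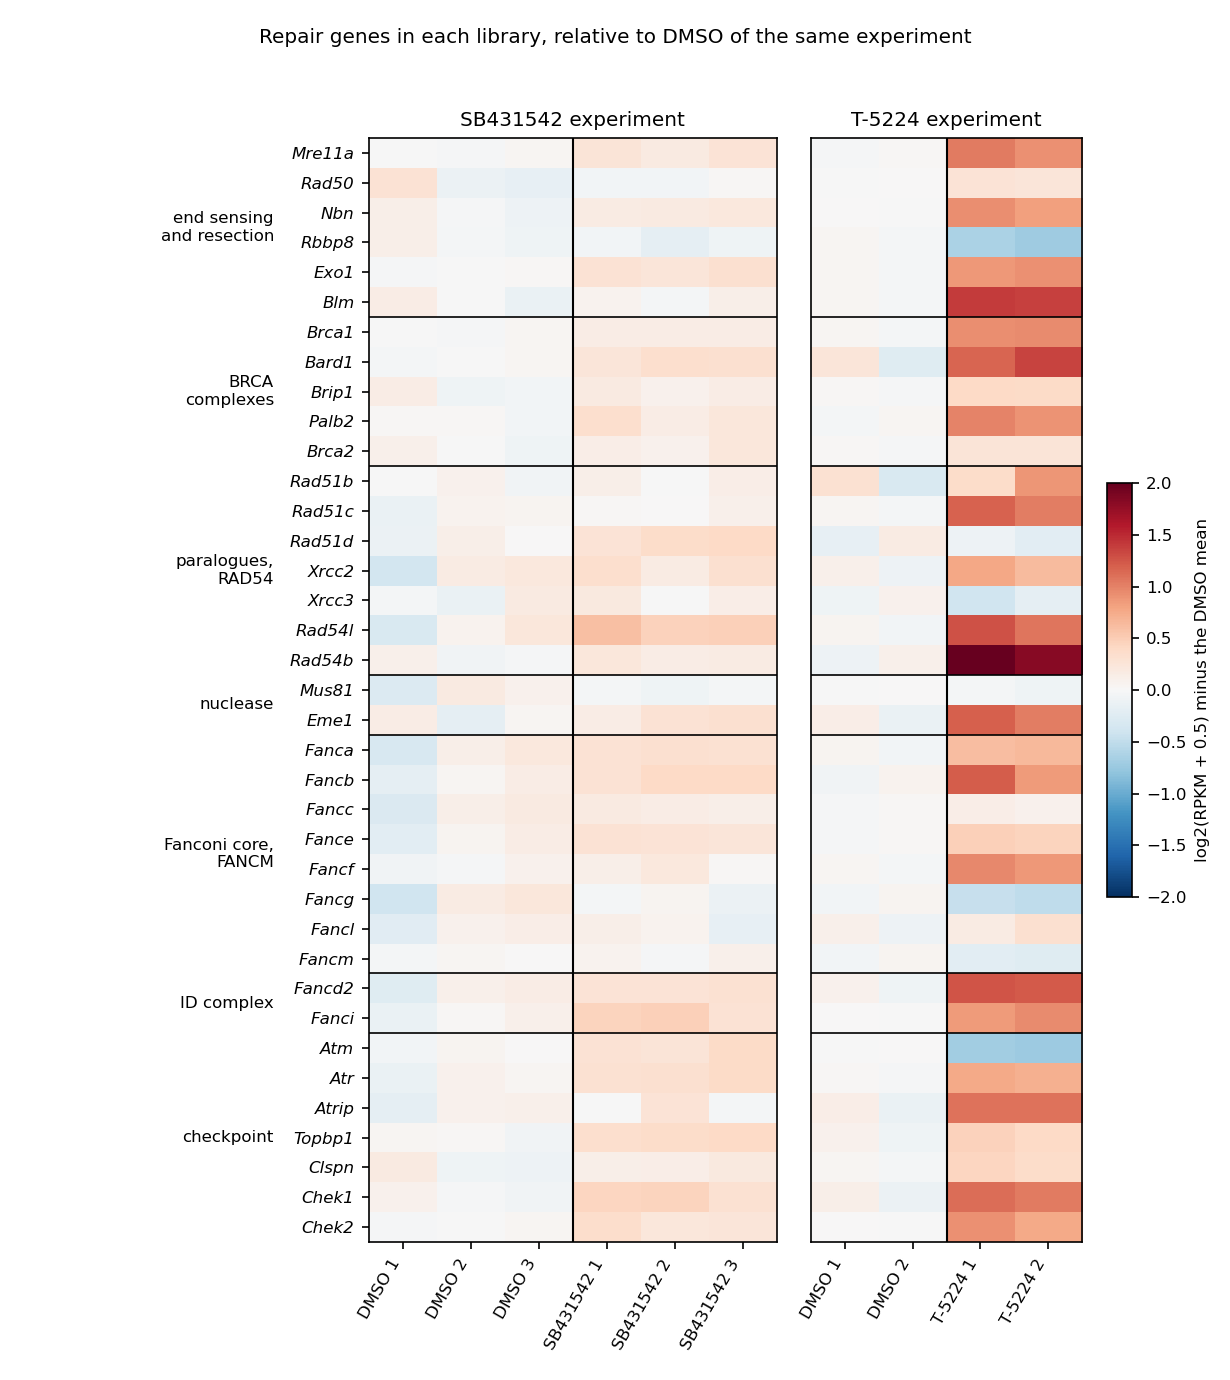
Difference of log2(RPKM + 0.5) from the DMSO mean of the same experiment (colour, from -2 in blue to 2 in red) for the 37 repair genes (rows, by role) in each library (columns). Both T-5224 libraries are red for most genes and most clearly blue for Rbbp8, Fancg and Atm, with a paler blue for Xrcc3 and Fancm. The SB431542 libraries are pale, and DMSO replicate 1 of the SB431542 experiment is below the mean of the other 2 for 25 genes.

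The 6 genes of end sensing and resection were all called with T-5224, 5 higher and 1 lower, where 40.3% and 39.4% of all genes were. Exo1 was tested only because T-5224 raised its mean, so the number higher favours a rise. Blm (mm9 chromosome 7, 87599879 to 87680005, minus strand), the Bloom syndrome helicase that unwinds ends and dissolves joined molecules, rose most. It was at 1.14 and 1.05 RPKM in DMSO and at 3.71 and 3.61 RPKM with T-5224. Every T-5224 library was above both DMSO libraries, and the log2 fold change was 1.38 ± 0.110 (SE, adjusted p = 3.49e-07). With SB431542, Blm was at 7.67, 6.84 and 6.26 RPKM in DMSO and at 7.24, 6.72 and 7.49 RPKM in treated cells, and these groups overlapped (log2 fold change 0.05, 95% interval -0.15 to 0.25).

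Mre11a (chromosome 9, 14589098 to 14641567, plus strand), the nuclease of the MRN complex, was called in both experiments. With T-5224 it went from 3.88 and 3.99 RPKM to 8.64 and 7.88 RPKM, a log2 fold change of 0.98 ± 0.0861 (adjusted p = 8.17e-07). With SB431542 it went from 8.72, 8.68 and 9.04 RPKM to 10.7, 10.1 and 10.8 RPKM, with no overlap and a log2 fold change of 0.24 ± 0.0564 (adjusted p = 0.0252). Its partners in the complex also rose with T-5224, Nbn by 0.88 and Rad50 by 0.26 on the log2 scale. The 95% interval of Rad50 (0.11 to 0.40) lay below those of Nbn (0.72 to 1.03) and Mre11a (0.79 to 1.17). Rad50 was not past the threshold with SB431542 (-0.03, 95% interval -0.30 to 0.24).

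Exo1 (chromosome 1, 177810909 to 177841527, plus strand) rose with SB431542 from 6.54, 6.61 and 6.73 RPKM to 8.18, 7.90 and 8.37 RPKM (log2 fold change 0.28 ± 0.0561, adjusted p = 0.0152). With T-5224 its mean rose from 0.674 to 1.68 RPKM (log2 fold change 0.89), and Exo1 was tested there only because of that rise. Rbbp8 (chromosome 18), which encodes CtIP, the cofactor that starts resection with MRN, went the other way. It fell with T-5224 from 14.5 and 13.8 RPKM to 8.89 and 8.46 RPKM (log2 fold change -0.67 ± 0.0716, adjusted p = 4.33e-06) and was not past the threshold with SB431542 (-0.10, 95% interval -0.27 to 0.06). Being highest of all 37 genes in the T-5224 experiment's DMSO libraries, its mean was below those of Nbn, Chek2, Fance, Rad50 and Rad51c after treatment.

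In the BRCA complexes, 3 of the 4 genes tested with T-5224 were higher. Bard1 (chromosome 1, 71074072 to 71149720, minus strand), the obligate RING partner of BRCA1, was at 0.934 and 0.524 RPKM in DMSO and at 2.21 and 2.60 RPKM with T-5224. The groups did not overlap despite the spread of the DMSO pair, with a log2 fold change of 1.26 ± 0.164 (adjusted p = 2.43e-05). Bard1 was tested there only because T-5224 raised its mean over the libraries, so that p-value favours a rise. Bard1 was also the member of this group that rose with SB431542, from 5.17, 5.30 and 5.50 RPKM to 6.40, 6.81 and 6.75 RPKM (0.30 ± 0.0611, adjusted p = 0.0165).

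Brca1 (chromosome 11, 101350078 to 101413269, minus strand) was at 1.81 and 1.69 RPKM in DMSO and at 3.77 and 3.83 RPKM with T-5224 (log2 fold change 0.94 ± 0.103, adjusted p = 5.71e-06). Brip1, the helicase that binds BRCA1, rose by 0.39, and Brca2, which acts with BRCA1 in recombination, was at 0.895 RPKM in DMSO and 1.17 RPKM with T-5224 without passing the threshold (0.26, 95% interval -0.03 to 0.54). The interval of Brca1 (0.71 to 1.16) lay above that of Brca2, though the difference between the genes was not tested. Palb2, which bridges the 2 proteins, was too low to be tested, at 0.442 and 0.485 RPKM in DMSO and 1.42 and 1.30 RPKM with T-5224.

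Among Rad51b, Rad51c, Rad51d, Xrcc2, Xrcc3 and the RAD54 translocases Rad54l and Rad54b, 5 of 6 genes tested rose with T-5224 and 3 passed 2-fold. Of all genes tested, 40.3% rose and 10.4% rose past 2-fold. Rad51b was tested only because T-5224 raised its mean, so the number that rose favours a rise. Rad54b (chromosome 4, 11486096 to 11542952, plus strand), a DNA translocase, had the largest log2 fold change of the 33 genes. It went from 1.02 and 1.24 RPKM to 6.11 and 5.24 RPKM, which is 5.02 times the DMSO mean and a log2 fold change of 1.92 ± 0.117 (adjusted p = 3.71e-08). The gene Fsbp lies within it and was low in the same libraries (0.244 and 0.0660 RPKM, then 0.441 and 0.457 RPKM). Rad54b was at 8.47 RPKM in DMSO and 9.63 RPKM with SB431542, not past the threshold (0.18, 95% interval 0.02 to 0.33).

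Its relative Rad54l (chromosome 4, 115766869 to 115796295, minus strand) had the largest change of the 37 genes with SB431542. It was at 6.39, 8.44 and 9.43 RPKM in DMSO and at 12.4, 11.2 and 11.3 RPKM with SB431542, a log2 fold change of 0.51 ± 0.1296 (adjusted p = 0.0323). The lowest value was that of DMSO replicate 1, and without that library the log2 fold change was 0.36 and still called, while without DMSO replicate 2 or any SB431542 library it was 0.46 to 0.55 and not past the threshold (adjusted p of up to 0.115). With T-5224, Rad54l went from 1.44 and 1.31 RPKM to 4.01 and 3.44 RPKM (1.17 ± 0.115, adjusted p = 2.23e-06). Of its exon bases, 15.4% are shared with Lrrc41 on the opposite strand, which rose by 0.43 with T-5224.

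Rad51c rose by 1.10 and Xrcc2 by 0.70 with T-5224, and Rad51b by 0.62 from 1.14 and 0.574 RPKM to 1.22 and 1.94 RPKM, the widest spread of the group. Rad51d (chromosome 11, 82685466 to 82704116, minus strand) did not follow them. It was called higher with SB431542, from 3.91, 4.64 and 4.26 RPKM to 5.23, 5.63 and 5.74 RPKM (0.34 ± 0.0791, adjusted p = 0.0243), and not called with T-5224, where its mean was 5.50 RPKM in DMSO and 4.85 RPKM in treated cells (-0.16, 95% interval -0.41 to 0.09). RAD51D binds XRCC2 in the complex with RAD51B and RAD51C, and the T-5224 intervals of Rad51d and Xrcc2 (0.45 to 0.95) did not overlap. Xrcc3, the partner of RAD51C in the other paralogue complex, was too low to be tested with T-5224, at 0.253 and 0.35 RPKM in DMSO and 0.110 and 0.205 RPKM after treatment.

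**Figure D3:**
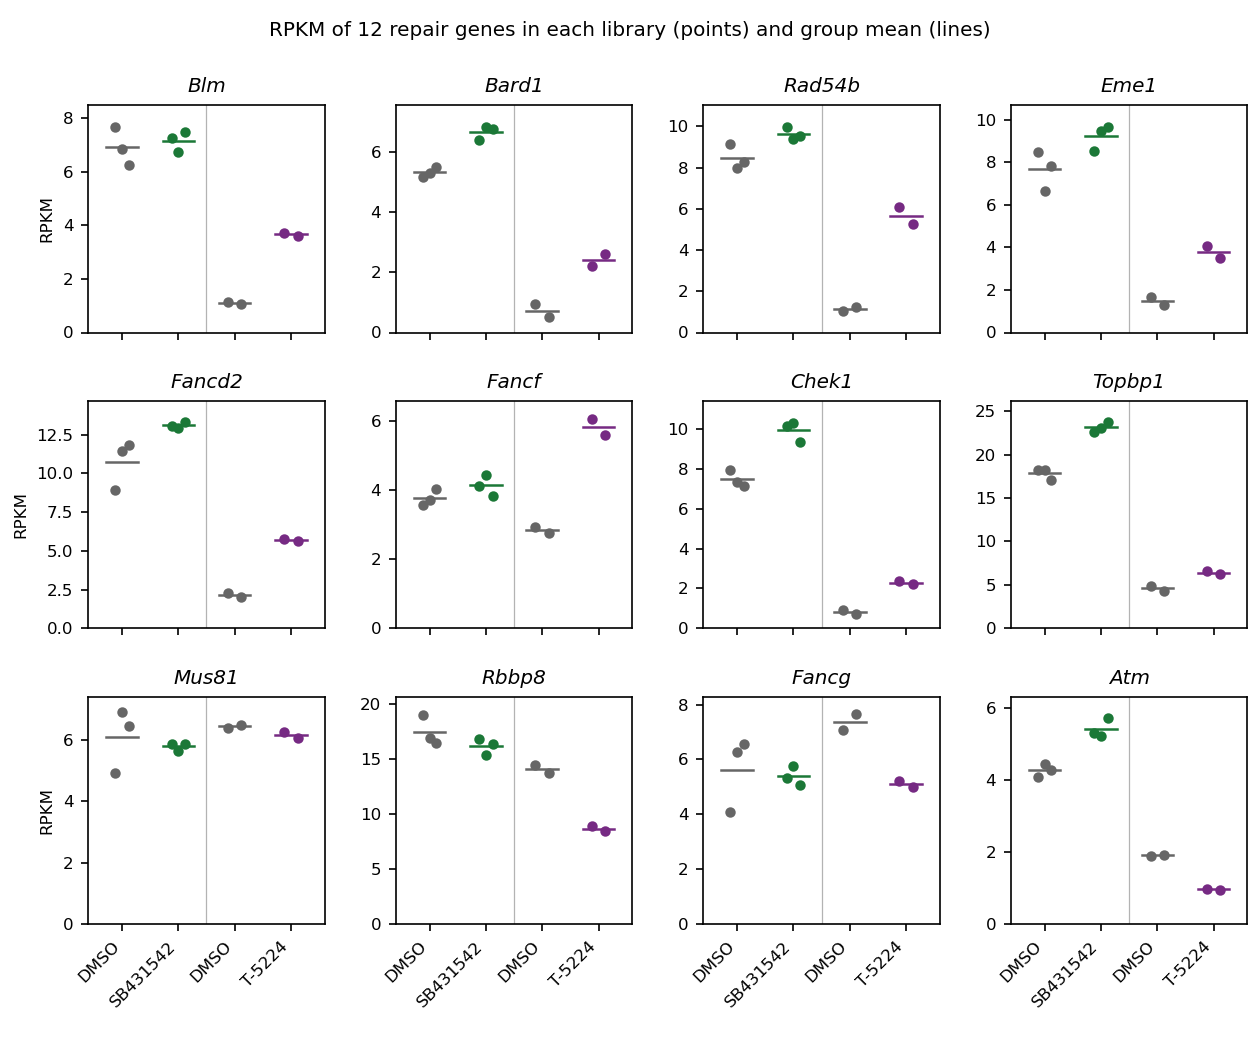
RPKM (vertical axis, from 0) of 12 repair genes in every library (points) with the group mean (line), for DMSO and SB431542 on the left and DMSO and T-5224 on the right of each panel. With T-5224, the points of Blm, Bard1, Rad54b, Eme1, Fancd2, Fancf, Chek1 and Topbp1 lie above DMSO, those of Rbbp8, Fancg and Atm below, and Mus81 differs little.

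MUS81 and EME1 form 1 nuclease, and with T-5224 the message of EME1 rose while that of MUS81 was not past the threshold. Eme1 (chromosome 11, 94506310 to 94515278, minus strand) went from 1.66 and 1.31 RPKM to 4.05 and 3.52 RPKM with T-5224 (log2 fold change 1.11 ± 0.123, adjusted p = 6.08e-06). Mus81, the catalytic subunit, was at 6.39 and 6.48 RPKM in DMSO and at 6.26 and 6.06 RPKM with T-5224 (-0.06, 95% interval -0.24 to 0.12), and its interval lay below that of Eme1 (0.84 to 1.38). With T-5224, Lrrc59, which shares 8.0% of the exon bases of Eme1 on the opposite strand, went from 138 to 301 RPKM. Neither subunit was past the threshold with SB431542.

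The Fanconi core genes went both ways. Of the 6 tested with T-5224, 4 rose, 1 fell and 1 was not past the threshold, and none passed 2-fold. Of all genes tested, 40.3% rose and 39.4% fell, with 10.4% up and 10.6% down past 2-fold. Fancf (chromosome 7, 59115947 to 59117637, minus strand), the adaptor of the core complex, went from 2.94 and 2.77 RPKM to 6.05 and 5.59 RPKM (log2 fold change 0.91 ± 0.0934, adjusted p = 3.04e-06). Of its exon bases, 15% are shared with Gas2 on the opposite strand, which rose by 1.69 with T-5224. Fanca (chromosome 8, 125792200 to 125842476, minus strand) went from 1.67 and 1.53 RPKM to 2.72 and 2.80 RPKM (0.64 ± 0.110, adjusted p = 0.000221). It shares 7.7% of its exon bases with Zfp276 on the opposite strand, which was not past the threshold with T-5224 (0.002).

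FANCA and FANCG bind each other in the core complex, and their messages moved in opposite directions with T-5224. Fancg (chromosome 4, 43015215 to 43023378, minus strand) fell from 7.06 and 7.64 RPKM to 5.21 and 4.995 RPKM (log2 fold change -0.49 ± 0.0841, adjusted p = 0.000236). Fance, which binds FANCD2, rose by 0.46, and Fancl, the ubiquitin ligase subunit, by 0.24 (adjusted p = 0.0485, near the threshold). Without 1 library the log2 fold change of Fancl ran from 0.15 to 0.34. Of its exon bases, 13.7% are shared with Vrk2 on the opposite strand, which rose by 0.65 with T-5224. Fancc was not past the threshold (0.11, 95% interval -0.14 to 0.36).

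Fancb (chromosome X, 161418524 to 161435204, plus strand), which forms a module with FANCL, was the core gene called with SB431542. It was at 1.84, 2.22 and 2.42 RPKM in DMSO and at 2.73, 2.97 and 2.99 RPKM with SB431542 (0.36 ± 0.101, adjusted p = 0.0445). In the T-5224 experiment Fancb was at 0.368 and 0.454 RPKM in DMSO and 1.60 and 1.14 RPKM after treatment, and Fancm, the translocase that anchors the core complex on DNA, at 0.444 and 0.527 RPKM and then 0.347 and 0.334 RPKM. Both were below the filter and were not tested there.

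Both subunits of the ID complex, the target of the core complex, rose with T-5224, as did 40.3% of all genes tested. Fancd2 (chromosome 6, 113481676 to 113547011, plus strand) went from 2.28 and 1.99 RPKM to 5.78 and 5.66 RPKM, a log2 fold change of 1.24 ± 0.0993 (adjusted p = 3.73e-07). Fanci (chromosome 7, 86536815 to 86595151, plus strand) went from 1.17 and 1.16 RPKM to 2.52 and 2.71 RPKM (0.90 ± 0.114, adjusted p = 1.85e-05). Of its exon bases, 14.8% are shared with Polg on the opposite strand, which went from a mean of 9.76 to 12.1 RPKM with T-5224. With SB431542, Fanci was called, from 5.06, 5.73 and 6.07 RPKM to 7.81, 8.02 and 6.99 RPKM (0.41 ± 0.0858, adjusted p = 0.0180). Fancd2 was at 8.94, 11.5 and 11.9 RPKM in DMSO and between 13.0 and 13.3 RPKM with SB431542, with no overlap, but was not past the threshold (0.28, 95% interval 0.04 to 0.52).

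The checkpoint genes held 5 of the 12 calls with SB431542. These were 5 of the 7 checkpoint genes (71.4%), against 10.2% of all genes tested. Topbp1 (chromosome 9, 103207545 to 103252762, plus strand), which activates ATR, was at 18.2, 18.2 and 17.0 RPKM in DMSO and at 22.6, 23.1 and 23.7 RPKM with SB431542. The 3 treated libraries were all higher, and the log2 fold change was 0.37 ± 0.0540 (adjusted p = 0.00493). With T-5224, Topbp1 rose by 0.43.

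Chek1 (chromosome 9, 36516067 to 36534650, minus strand), the kinase downstream of ATR, rose with SB431542 from 7.94, 7.37 and 7.13 RPKM to 10.2, 10.3 and 9.36 RPKM (0.39 ± 0.0677, adjusted p = 0.00906). With T-5224 it went from 0.925 and 0.724 RPKM to 2.38 and 2.20 RPKM (1.08 ± 0.1298, adjusted p = 1.22e-05). Chek1 was tested there only because T-5224 raised its mean over the libraries, so that p-value favours a rise. Atrip (chromosome 9, 108960447 to 108976638, minus strand), the partner that brings ATR to single-stranded DNA, went with T-5224 from 2.41 and 1.94 RPKM to 5.14 and 5.15 RPKM (1.08 ± 0.109, adjusted p = 2.60e-06). It shares 25.8% of its exon bases with Trex1 on the same strand, so reads there can belong to either, and Trex1 fell by 0.33 in the same libraries.

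The 2 upstream kinases parted ways with T-5224. Atr rose by 0.74, while Atm (chromosome 9, 53247254 to 53344845, minus strand), the kinase activated by double-strand breaks, fell from 1.89 and 1.91 RPKM to 0.982 and 0.950 RPKM (log2 fold change -0.71 ± 0.1205, adjusted p = 0.000194). With SB431542 both rose, Atr by 0.34 and Atm by 0.31. Chek2, the kinase downstream of ATM, rose by 0.27 with SB431542 and by 0.84 with T-5224, and Clspn was called with T-5224 (0.40) and not with SB431542 (0.15, 95% interval -0.04 to 0.34). The 3 falls of Rbbp8, Fancg and Atm are given library by library because they are the only falls called, a choice made after their values were seen. Mus81, which was not called, and Xrcc3 and Fancm, which were not tested, also had both T-5224 libraries below DMSO.

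**Figure D4:**
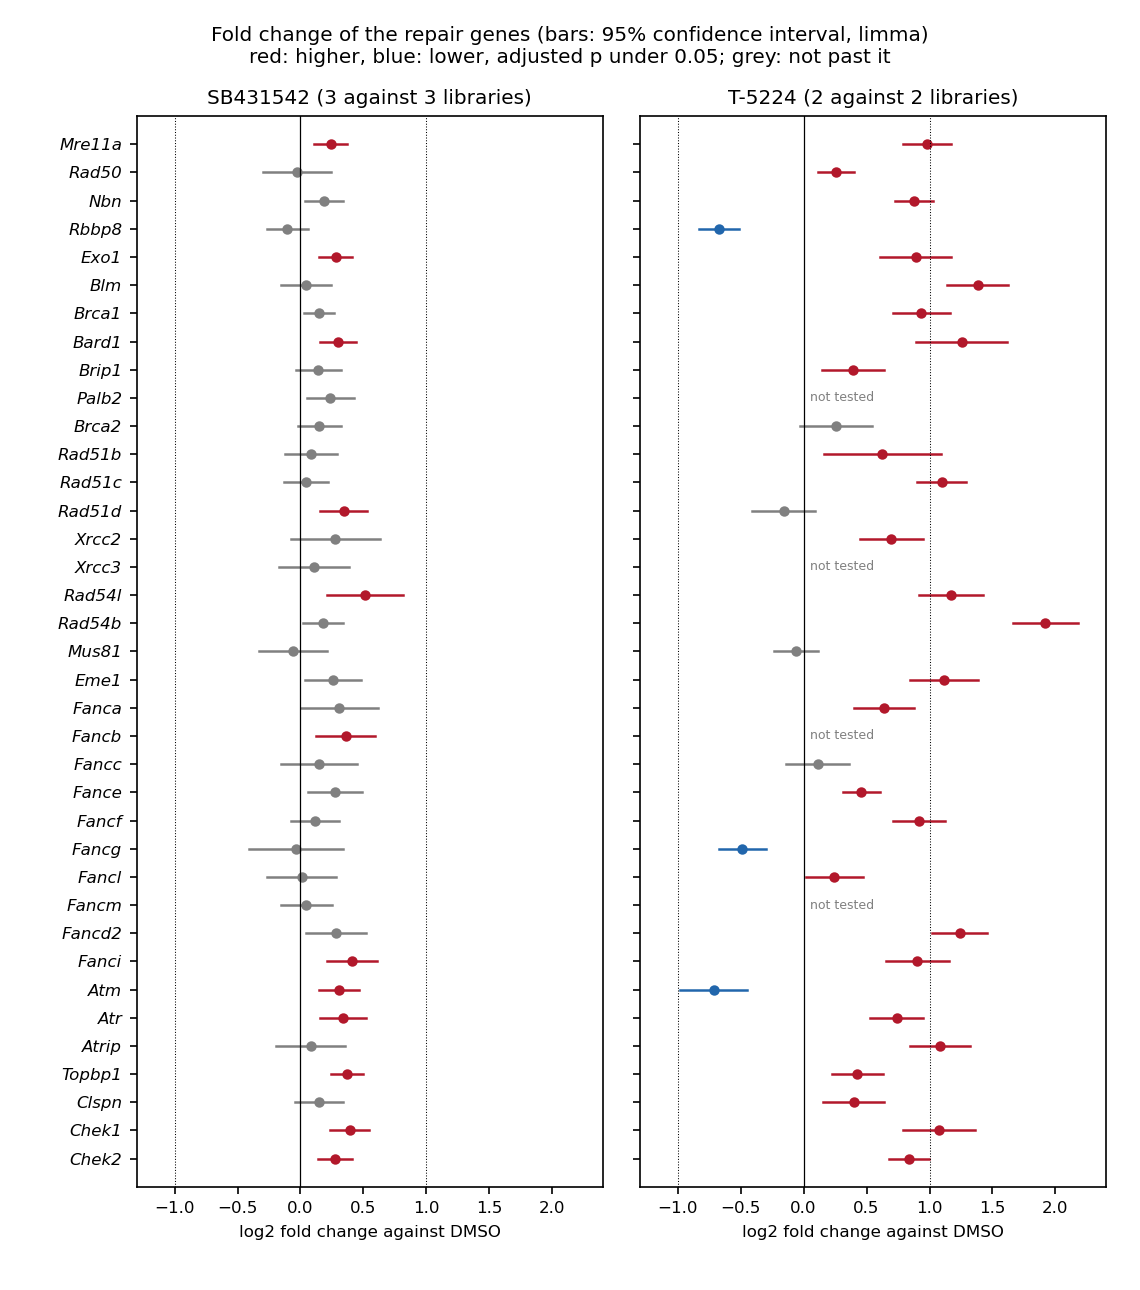
Log2 fold change against DMSO (horizontal axis, points) with its 95% confidence interval (bars, limma) for the 37 repair genes with SB431542 (left) and T-5224 (right), red for genes higher and blue for genes lower at an adjusted p under 0.05, and grey for the others. With SB431542 the points lie between -0.10 and 0.51, and with T-5224 between -0.71 and 1.92.

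Of the 33 genes tested in both experiments, 9 were higher with both inhibitors (27.3%): Mre11a, Exo1, Bard1, Rad54l, Fanci, Atr, Topbp1, Chek1 and Chek2. Over all 10462 genes tested in both, 7.08% were. Without the genes that had a DMSO mean under 1 RPKM in the T-5224 experiment, which leaves out Exo1, Bard1 and Chek1, 6 of 28 were higher with both (21.4%), against 6.78% of all genes so chosen. The share higher with both was larger among replication genes, 13 of 34 (38.2%), and mitosis genes, 11 of 22. It was smaller among the other recombination genes, 7 of 42 (16.7%), p53 genes, 1 of 18 (5.56%), and end joining genes, 0 of 9. Of the 9 repair genes, only Topbp1 kept its SB431542 call in every fit without 1 library. Atm was higher with SB431542 and lower with T-5224, 1 of 33 repair genes (3.03%), against 1.81% of all genes. The log2 fold changes had the same sign in 30 of the 33 (90.9%) and in 64.6% of all genes. After T-5224, 28 of the 37 repair genes still had a lower mean RPKM than DMSO-treated cells of the SB431542 experiment. The share of all genes for which this held was not worked out.

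Promoter sequences were read for the repair genes because so many moved together with T-5224. RefSeq windows (GRCm38.p6) of 300 bases, 250 before the RefSeq start of the gene and 50 after, were found for 29 of the 37 genes; Rad50, Nbn, Rbbp8, Exo1, Rad51d, Xrcc2, Rad54b and Fancd2 had none. Both strands were searched for E2F letters (TTTCCCGC, TTTGGCGC, TTTCGCGC or TTTGCCGC), for the CHR element of G2 and M genes (TTTGAA) and for AP-1 letters (TGACTCA, which reads TGAGTCA on the other strand). The windows of the largest rises (Blm and Bard1), of the next rise with E2F letters (Rad51c) and of the largest falls (Atm and Fancg) are printed 5′ to 3′, with positions on mm9 from an exact match and capitals for the letters found.
Blm, chr7:87679835-87680134, minus strand: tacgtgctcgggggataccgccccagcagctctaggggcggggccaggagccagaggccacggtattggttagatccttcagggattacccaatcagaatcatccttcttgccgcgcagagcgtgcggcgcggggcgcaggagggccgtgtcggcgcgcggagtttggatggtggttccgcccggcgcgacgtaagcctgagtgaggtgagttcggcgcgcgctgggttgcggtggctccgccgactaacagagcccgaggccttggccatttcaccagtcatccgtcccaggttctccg
Bard1, chr1:71149497-71149796, minus strand: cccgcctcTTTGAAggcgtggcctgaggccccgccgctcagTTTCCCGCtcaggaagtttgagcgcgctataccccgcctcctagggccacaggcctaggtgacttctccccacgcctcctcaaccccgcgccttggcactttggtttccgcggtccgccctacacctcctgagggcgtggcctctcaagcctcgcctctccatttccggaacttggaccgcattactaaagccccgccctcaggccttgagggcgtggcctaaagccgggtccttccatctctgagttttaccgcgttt
Rad51c, chr11:87217959-87218258, minus strand: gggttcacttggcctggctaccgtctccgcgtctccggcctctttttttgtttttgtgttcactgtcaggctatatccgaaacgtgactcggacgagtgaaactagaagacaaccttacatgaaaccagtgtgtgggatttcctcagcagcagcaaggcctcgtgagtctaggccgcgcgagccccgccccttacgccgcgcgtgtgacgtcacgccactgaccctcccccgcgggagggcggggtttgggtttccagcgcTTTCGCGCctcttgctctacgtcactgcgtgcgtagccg
Atm, chr9:53344727-53345026, minus strand: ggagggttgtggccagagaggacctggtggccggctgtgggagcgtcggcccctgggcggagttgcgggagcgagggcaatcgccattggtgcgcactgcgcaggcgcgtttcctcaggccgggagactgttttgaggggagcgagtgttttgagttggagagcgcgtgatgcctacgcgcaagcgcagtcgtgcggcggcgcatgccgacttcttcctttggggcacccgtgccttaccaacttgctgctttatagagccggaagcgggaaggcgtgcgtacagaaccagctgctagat
Fancg, chr4:43023124-43023423, minus strand: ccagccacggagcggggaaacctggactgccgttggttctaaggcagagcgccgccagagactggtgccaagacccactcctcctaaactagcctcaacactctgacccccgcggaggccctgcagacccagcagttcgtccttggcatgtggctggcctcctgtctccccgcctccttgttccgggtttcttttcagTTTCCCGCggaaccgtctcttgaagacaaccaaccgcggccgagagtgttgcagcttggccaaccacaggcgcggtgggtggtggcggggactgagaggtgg

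Positions count from 1 at the first transcribed base in RefSeq, with negative positions before it. The GENCODE annotation behind the gene positions given above starts these genes further upstream. The distance is 121 bases in Blm, 174 in Bard1, 448 in Rad51c, 69 in Atm and 205 in Fancg. The letters in Fancg therefore lie before the RefSeq start but inside the gene as GENCODE has it. The whole window of Rad51c, with its letters, also lies inside the gene as GENCODE has it. Bard1 held a CHR element from position -242 and E2F letters from position -209, with no overlap of the 2. E2F letters began at position 12 in Rad51c and at position -52 in Fancg, while Blm and Atm held none of the letters. E2F letters were found in 7 of the 29 windows (24.1%), those of Bard1, Brca2, Rad51c, Fancg, Topbp1, Clspn and Chek2, against 2.6% of all 27025 genes with a window and 5.0% of the 8454 of them tested with T-5224. Windows with the letters came from genes that rose (5 of 20) and from 1 of 2 genes that fell. The CHR element was in 3 windows (10.3%; Bard1, Rad51b and Eme1), against 20.2% and 13.9%, and AP-1 letters were in 0 of 29, against 5.9% and 4.5%. These are matches of letters in a short window, and binding was not measured.

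The other genes of the pathway moved in both directions, with a smaller share of falls than over all genes. Of 45 further homologous recombination and Fanconi genes, 7 were higher (15.6%) and 2 lower (4.44%) with SB431542, against 10.2% and 10.0% of all genes. With T-5224, 25 of 42 tested were higher (59.5%) and 6 lower (14.3%), against 40.3% and 39.4% of all genes. The median log2 fold change was 0.14 with SB431542 and 0.35 with T-5224. Fignl1, an ATPase of recombination, rose by 0.56 with SB431542 and by 1.62 with T-5224, Mms22l by 0.43 with SB431542, and Rad18, a ubiquitin ligase of damage tolerance, by 1.91 with T-5224.

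The falls in this list included a gene that favours the competing route. Trp53bp1, which protects ends from resection, fell by 0.25 with SB431542 and by 0.90 with T-5224. Rad52 fell by 0.34 with SB431542 and rose by 0.62 with T-5224, and Ercc4, a nuclease of crosslink repair, fell by 0.69 with T-5224. In non-homologous end joining, 1 of 9 genes was higher with SB431542 (11.1%; Polm, 0.36), and with T-5224 3 were higher and 3 lower (33.3% each). These shares are near or below those of all genes (10.2% higher with SB431542, 40.3% higher and 39.4% lower with T-5224), and single genes are given as values only. Xrcc6 (Ku70) rose by 1.54 and its partner Xrcc5 (Ku80) by 0.29, while Prkdc, the kinase they recruit, fell by 0.90 and the polymerase gene Poll by 0.55. The median over the 9 genes was 0.11 with SB431542 and 0.13 with T-5224.

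Proliferation genes moved with the repair genes, and their part in the result was not tested. With SB431542, 19 of 34 replication and E2F genes were higher and 0 lower (median 0.25; Cdt1 0.58, Rfc5 0.43), and 11 of 22 mitosis genes were higher and 0 lower (median 0.24; Ccnb1 0.50, Cdk1 0.47). With T-5224, all 22 mitosis genes were higher (median 1.09), Aurkb by 1.62 and Cdc20 by 1.58. Of the 34 replication genes, 20 were higher (58.8%) and 8 lower (23.5%), with a median of 0.39. Cdt1 (2.15) and Cdc45 (1.69) rose, and E2f2 (-1.14) and Ccne1 (-1.09) fell. Of all genes tested with T-5224, 40.3% were higher and 39.4% lower. E2f1 rose by 0.28 with SB431542 and was not past the threshold with T-5224 (-0.01), and the proliferation marker Mki67 rose by 0.43 with T-5224 and was not past it with SB431542 (0.16, adjusted p = 0.492). In bulk RNA, a larger share of cycling cells and more RNA per cell cannot be told apart.

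Genes regulated by p53, which damaged cells use to arrest, went both ways, and so did all genes tested. With SB431542, 2 of 18 were lower (11.1%, against 10.0% of all genes), Trp53inp1 by 1.07 and Cdkn1a by 0.63. Of the 18, 1 was higher (Aen, 0.30), a share of 5.56% against 10.2% of all genes, and the median was -0.02. With T-5224, 8 of 20 were lower (40.0%, against 39.4% of all genes) and 11 higher (55.0%, against 40.3%), with a median of 0.33. The median turned to -0.46, with 7 higher, among genes with a mean of at least 5 RPKM, where 43.4% of all genes were higher. Gdf15 and Fas had a DMSO mean under 1 RPKM and were tested only because T-5224 raised them, and without them 9 of 18 were higher (median 0.15). Trp53inp1 fell by 3.12 and Sesn1 by 2.15, while Gdf15 rose from 0.203 RPKM and a listed 0 to 11.7 RPKM in both libraries, and Fas from 0.420 and 0.308 RPKM to 5.19 and 5.09 RPKM. Trp53 itself went from 68.9 and 71.2 RPKM to 182 and 173 RPKM with T-5224 (1.33) and was not past the threshold with SB431542 (0.13, adjusted p = 0.0993).

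**Figure D5:**
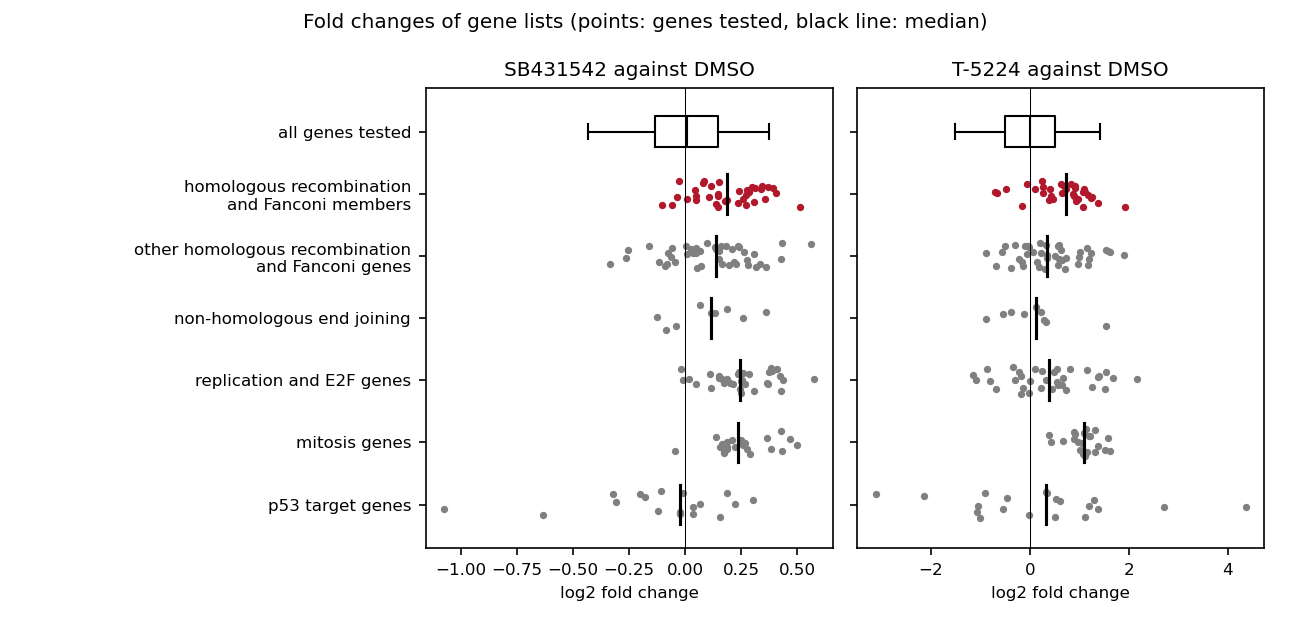
Log2 fold change against DMSO (horizontal axis) with SB431542 (left) and T-5224 (right, on a wider axis) of all genes tested (box from the lower to the upper quartile, whiskers from the 5th to the 95th percentile) and of each tested gene of 6 lists (points; black line, median). The medians of the repair genes, 0.19 and 0.74, lie above those of all genes, 0.01 and 0.00, and the mitosis genes have the highest median with T-5224, 1.09.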

How the data were processed

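RNA-seq libraries were made by the study with a stranded TruSeq mRNA kit, aligned with TopHat to mm9 and summarised per gene with HOMER, per the labels and the study's methods; versions and the strand setting are not given in the sources used here. The deposited RPKM values, normalized by the authors for transcript length and mapped reads, were used as deposited, with all 10 columns of values and 0 left out. The authors' test was DESeq2 on counts, which were not analysed here, so RPKM were tested on a log scale instead. Rows with a date in place of a gene name were left out (22 and 23).

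Genes with a mean of at least 1 RPKM over the libraries of a table were compared with limma 3.58.1 (R 4.3.3) on log2(RPKM + 0.5), a scale that understates changes of low genes, with empirical Bayes and a trend of variance on the mean, and adjusted by Benjamini-Hochberg over all genes tested (threshold 0.05). Over 2-fold means a log2 fold change beyond 1 in size as well. Tables were prepared in Python 3.11.15. The study's methods call the replicates biological, the labels name no culture or day, and p-values measure the spread between these libraries. The script was tested on simulated data. Standard errors, and not counting error, set the precision, and depth came from whole-read steps in RPKM of short RNAs (97.4 to 100.0% of values within 0.05 of a whole read).

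Members and lists were chosen with earlier results of these data known. In each role group and experiment, up to 2 called genes with the largest change are given library by library, and the others by mean or fold change. From the other lists, the 2 largest called rises and falls are named, with Trp53, E2f1 and Mki67. A further gene that the rule names is not reported here. Positions are from GENCODE on NCBIM37 (mm9), with Rad51b and Rad51d found as Rad51l1 and Rad51l3. The T-5224 table numbers its DMSO columns 1 and 2 where the labels have 4 and 5, and the table's numbers were used. Alternatives were pseudocounts of 0.1 and 1, no filter or a mean of at least 5 RPKM, median centring, quantile normalization, no trend, unadjusted p, a replicate block and each library left out. Added after seeing the data were a block on the T-5224 table's numbers and a filter on its DMSO mean.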

Additional observations from a re-analysis of the deposited data

How the results depend on the processing

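With SB431542, the number of repair genes higher (12) was 20 at an unadjusted p, 8 with no filter and between 1 and 21 without 1 library, and the number lower (0) was between 0 and 2. Their median (0.19) was 0.25 at a mean of at least 5 RPKM. Replicate numbers did not pair the samples (correlations of deviations of -0.15, 0.15 and -0.09), and with the number as a block 4 repair genes and 11 replication genes (19 without) were higher and 0 other recombination genes lower. For T-5224 the labels give the groups no shared numbers, but the table numbers the columns of both 1 and 2. With that number as a replicate block, a fit added after seeing the data, the median was 0.74 and 0 calls of repair genes were lost or gained, though it leaves 1 residual degree of freedom per gene and rests on the spread pooled over genes (correlation of deviations 0.059, with 24 and 25 of 33 genes lower in the columns numbered 2). Other recombination genes lower (2) were 0 with no filter, and 1 with median centring and with quantile normalization. At an unadjusted p the numbers higher were 17 other recombination (7), 2 end joining (1), 2 p53 (1) and 17 mitosis genes (11), with 5 p53 genes lower (2). Without 1 library the numbers higher ran from 3 to 15 for other recombination (0 to 4 lower) and 0 to 3 for end joining. They ran from 0 to 1 for p53, 5 to 26 for replication and 3 to 20 for mitosis genes. The end joining median ran from 0.068 to 0.134. The share of all genes higher with SB431542 (10.2%) moved in the same fits. It was 19.1% at an unadjusted p, 4.9% with no filter, 5.28% with the block and 2.78% to 19.9% without 1 library. The share lower (10.0%) was 17%, 5.32%, 6.45% and 3.98% to 17.6% in the same order.

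With T-5224, repair genes up over 2-fold (9) were 14 at a pseudocount of 0.1, 4 at 1 and 1 at a mean of at least 5 RPKM, which left 11 of them tested and 7 higher (26). Their median (0.74) was 0.84 and 0.65 at those pseudocounts, 0.43 at 5 RPKM, 0.82 with quantile normalization and 0.72 to 0.84 without 1 library. At 5 RPKM, 16 other recombination genes were higher and 3 lower, and 7 p53 genes were higher with a median of -0.46 (0.33 otherwise). There, 13 replication genes were higher and 3 lower (median 0.48), and the end joining median was 0.053 (0.194 with quantile normalization). Of all genes at 5 RPKM, 43.4% were higher and 38.4% lower. Among genes with a DMSO mean of at least 1 RPKM, a choice made after seeing the data, the medians were 0.149 for p53, 0.00244 for end joining and 0.333 for replication genes. The mitosis median was 1.16 at a pseudocount of 0.1. Medians without 1 library ran from 0.35 to 0.43 for other recombination, -0.0265 to 0.281 for end joining, 0.33 to 0.44 for replication and 1.04 to 1.17 for mitosis genes.

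Without 1 library, the log2 fold change with SB431542 of genes that were not called crossed 0, in Rad50 from -0.113 to 0.113, Blm from -0.0187 to 0.118, Rad51c from -0.0204 to 0.0782, Mus81 from -0.192 to 0.0322, Fancc from -0.000641 to 0.238, Fancg from -0.233 to 0.0804, Fancl from -0.103 to 0.092 and Atrip from -0.0181 to 0.137. With T-5224 that of Rad51d ran from -0.327 to 0.01065. The cause of these moves was not tested.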
